A study of Mus musculus with 12 samples.

Results

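The lysosome genes of mouse neural stem cells were described at the level of mRNA. They are the genes whose row of the deposited annotation table holds the KEGG pathway Lysosome, which takes 123 of 34745 genes in all. No measured value enters that rule, but it was chosen with earlier results of these data known. The cells were neural stem cells of the hippocampus of wild type C57BL/6 mice, grown in DMEM/F12 with B27, penicillin and streptomycin, EGF, bFGF and heparin. The groups were passage 10 cultures that had received ESC-sEVs, small extracellular vesicles of embryonic stem cells, from passage 2 to passage 10 (P10 EV, n = 4 libraries), passage 10 cultures that had received an equal volume of PBS over the same passages (P10 PBS, n = 4), and passage 2 cultures (P2, n = 4). The title and design of the study set the vesicle-treated late cultures against the PBS-treated late cultures and the late against the early cultures. P2 differs from the passage 10 groups in passage and in the added agent, since no PBS is named for it.

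Lysosomes are acidic vesicles in which proteins, glycans, lipids and nucleic acids are broken down. Their hydrolases are made in the endoplasmic reticulum, marked with mannose 6-phosphate in the Golgi and carried by mannose 6-phosphate receptors in clathrin and adaptor coats, while the V-ATPase pumps the protons that keep the lumen acidic. Many of these genes are direct targets of TFEB, TFE3 and MITF, transcription factors that bind E-box motifs with the core CACGTG, and quiescent neural stem cells of the adult mouse brain are known for large lysosomes.

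Total counts lay between 10736538 and 16807647 per library, of which lysosome genes took 0.849% to 0.920% in P10 EV, 0.938% to 1.02% in P10 PBS and 0.778% to 1.38% in P2. Markers of neural stem cells were abundant in all 12 libraries, with a summed level over 10 genes of 3236 to 4264 CPM, which are counts scaled to the adjusted library total. Of 14 microglia and macrophage markers, cells rich in lysosomes, 1 had enough counts to be tested, and their summed level was 1.60 to 2.67 CPM in P10 EV, 2.15 to 3.49 CPM in P10 PBS and 2.03 to 3.64 CPM in P2. Transcripts of 8 liver genes summed to 42.6 to 51.3 CPM in 4 libraries (P10 EV replicate 1, P10 PBS replicate 1, P2 replicates 1 and 2) and to at most 1.68 CPM in the other 8. The P2 libraries stood apart from each other: the mean deviation of 20 S phase genes from their 12-library mean, in log2 CPM, was 0.57, -0.23, -1.86 and -1.33 in P2 replicates 1 to 4, against 0.37 to 0.49 in P10 EV and 0.18 to 0.41 in P10 PBS. Counts of members called and overall medians that involve P2 are therefore given with and without P2 replicate 1 or the 4 libraries with liver transcripts. P2 replicate 1 had the highest S phase value of the 12 libraries, but P2 replicates 3 and 4 lay further from the passage 10 libraries. The S phase values are thus no ground for leaving out P2 replicate 1 alone. It was the lowest P2 library for 77 of 105 lysosome genes. Leaving out the 4 libraries keeps P2 replicates 3 and 4, with mean deviations of the lysosome genes of 0.54 and 0.24 log2 CPM. Both choices take out P2 libraries with lower lysosome values, so the calls they add are not independent support. Calls without P2 replicate 1 are given for many of the named members, but not for all that were called.

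Of the 123 lysosome genes, 105 had enough counts to be tested, among 16058 genes tested in all. Of the 18 others, 8 had no count in any library: Dnase2b, Ctsm, Entpd4, Gm21685, Ctsj, Ap1m2, Ctsg and Ctse. The other 10 had 1 to 67 counts over the 12 libraries: Atp6v0d2, Slc11a1, Laptm5, Ap1s3, Ctss, Ctsk, Napsa, Lamp3, Acp5 and Atp6v0a4. Several of these are known from other cells, such as Ctss and Laptm5 of immune cells, Ctsk and Acp5 of osteoclasts, Ctsj and Ctsm of the placenta, and Lamp3 of dendritic cells. The members fall into 9 role classes with 16 cathepsins (10 tested), 16 glycosidases (16), 8 sulfatases (8), 11 other hydrolases (9), 3 other proteases (2), 5 lipid-binding and activator proteins (5), 24 membrane proteins (19), 10 V-ATPase genes (8) and 30 genes of enzyme sorting and coats (28). The sulfatases include Sumf1, which activates them in the endoplasmic reticulum. The first 6 classes, called lumenal here although Sumf1 does not act in the lysosome, hold 59 members, 50 of them tested.

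Lysosome genes were well expressed. On the length-normalised FPKM scale, the median over the 105 tested members of the mean of 12 libraries was 11.4, against 3.79 over all genes tested, and 57 members reached at least 10. Lamp1, the most abundant glycoprotein of the lysosomal membrane, had 213 ± 10.5 FPKM in P10 EV, 263 ± 24.7 in P10 PBS and 253 ± 91.0 in P2 (mean ± SD, n = 4 each). Psap, the precursor of the saposins that help enzymes reach their lipid substrates, had 126 ± 14.2 FPKM in P10 EV, 167 ± 24.6 in P10 PBS and 187 ± 64.3 in P2. Among cathepsins, the aspartic protease gene Ctsd was highest, with 68.1 ± 9.26 FPKM in P10 EV, 97.7 ± 21.1 in P10 PBS and 111 ± 44.0 in P2. The P2 spread exceeded the difference between the group means for all 3 genes. Averaged over the 12 libraries, the membrane genes Laptm4a (172 FPKM) and Cd63 (112 FPKM), a tetraspanin of late endosomes and of extracellular vesicles, and the clathrin heavy chain gene Cltc (102 FPKM) ranked above Ctsd (92.3 FPKM). At the low end of the tested members named here stood Abcb9, a lysosomal peptide transporter (0.699 FPKM), Arsg, a sulfatase of heparan sulfate (0.797), Hyal1, a hyaluronidase (0.873), and Idua, which removes iduronic acid from glycosaminoglycans (1.02).

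The promoters of the lysosome genes were searched for the E-box core CACGTG and for its longer form TCACGTGA, which contains it; both read the same on either strand. Of the 123 members, 96 had a promoter (250 bases before to 50 after the start site) in the RefSeq table for build GRCm38.p6. TCACGTGA was present in 10 of these 96 (10.4%), against 1.12% of the 27025 genes with a promoter in the table and 2.01% of the 10671 tested genes among them. The 10 were Ctsd, Ctsa, Gnptg, Igf2r, Gla, Cd164, Mcoln1, Cln3, Sumf1 and Atp6v0d1. CACGTG was present in 23 of 96 (24.0%), against 8.09% of all genes in the table, and in 23 of the 83 tested (27.7%), against 11.4% of tested genes. A match is a stretch of letters and not a measured binding site. Promoters of 4 members are shown, taken from those named by the rule given with the processing. They are those with TCACGTGA and the most expressed of those with CACGTG. Igf2r and Ctsa, named outside that rule, also hold TCACGTGA and are not shown. The 4 shown fall in 4 roles (protease, proton pump, membrane protein and glycosidase), which did not enter the choice. Capitals mark TCACGTGA in Ctsd (chr7:142387778-142388077, minus strand) and Atp6v0d1 (chr8:105566015-105566314, minus strand) and CACGTG in Lamp1 (chr8:13158911-13159210, plus strand) and Glb1 (chr9:114400828-114401127, plus strand), each read 5′ to 3′ along the gene.
Ctsd: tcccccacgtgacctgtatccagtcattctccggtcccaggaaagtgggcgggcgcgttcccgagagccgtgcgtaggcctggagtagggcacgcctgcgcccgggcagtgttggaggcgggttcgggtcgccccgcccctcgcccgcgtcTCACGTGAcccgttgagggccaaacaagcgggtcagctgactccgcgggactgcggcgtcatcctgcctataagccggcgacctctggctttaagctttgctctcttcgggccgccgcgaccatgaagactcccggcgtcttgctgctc
Atp6v0d1: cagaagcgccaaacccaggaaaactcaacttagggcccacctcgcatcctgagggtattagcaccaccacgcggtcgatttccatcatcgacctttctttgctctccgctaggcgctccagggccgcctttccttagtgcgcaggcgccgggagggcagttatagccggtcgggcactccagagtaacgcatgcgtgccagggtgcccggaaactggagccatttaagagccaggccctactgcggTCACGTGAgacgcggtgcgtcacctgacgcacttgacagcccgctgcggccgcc
Lamp1: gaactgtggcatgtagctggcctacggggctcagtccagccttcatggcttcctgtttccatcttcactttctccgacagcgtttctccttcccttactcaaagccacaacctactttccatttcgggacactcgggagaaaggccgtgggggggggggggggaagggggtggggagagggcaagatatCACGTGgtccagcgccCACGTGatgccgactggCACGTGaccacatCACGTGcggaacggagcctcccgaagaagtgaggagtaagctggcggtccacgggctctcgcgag
Glb1: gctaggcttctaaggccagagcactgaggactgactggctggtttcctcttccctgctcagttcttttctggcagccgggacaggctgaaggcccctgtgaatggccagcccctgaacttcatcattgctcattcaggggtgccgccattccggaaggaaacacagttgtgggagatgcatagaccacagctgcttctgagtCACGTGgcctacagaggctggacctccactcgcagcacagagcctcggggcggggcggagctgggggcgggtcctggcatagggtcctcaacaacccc
In Ctsd the match begins 99 bases before the start site, and a second CACGTG lies 245 bases before it in lower case. In Atp6v0d1, a subunit of the proton pump, the match begins 4 bases before the start site. Lamp1 holds 4 copies, which begin 61, 45, 28 and 15 bases before the start site. Glb1, the lysosomal beta-galactosidase, holds 1 that begins 48 bases before it.

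In P10 EV against P10 PBS cultures, transcripts of lumenal enzymes had lower values in P10 EV, by a small amount, and no single gene passed the test. Of the 105 members tested, 79 (75.2%) had a log2 fold change below 0, against 48.5% of all genes tested, and their median was -0.16, against 0.01 for all genes. EdgeR called 0 members at an adjusted p under 0.05 and 0% of all genes; the smallest adjusted p of a member was 0.55. DESeq2 and limma-trend also called 0 members. At an unadjusted p under 0.05, edgeR counted 11 members lower in P10 EV, beside 4.39% of all genes, and 2 higher, beside 2.85%, which is 13 of 105 beside 7.24%. Without P10 PBS replicate 1 that count was 3, beside 4.53% of all genes in the same fit, without P10 EV replicate 4 it was 6, beside 4.33%, and in a fit of these 8 libraries alone it was 32, beside 12.9%. Markers of astrocytes had a larger shift in this comparison: all 9 had a fold change below 0, with a median of -0.58, edgeR called 0 of them, 5 had an unadjusted p under 0.05, and 4 had all P10 EV libraries below all P10 PBS libraries. The summed level of these markers was 2220 to 2732 CPM in P10 EV, 2716 to 4272 CPM in P10 PBS and 1955 to 6510 CPM in P2. Their part in the lysosome values was not tested. In bulk RNA, fewer cells of a type and less RNA per cell cannot be told apart.

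For 20 members (19.0%) all 4 P10 EV libraries lay below all 4 P10 PBS libraries, beside 3.84% of all genes tested, and for 3 members all lay above, beside 3.74% of all genes. Those with lower values included Ctsa, Ctsb, Ctsd, Ctsl, Ctso, Hexa, Manba, Naglu, Fuca1, Arsa, Aga, Ppt2, Smpd1, Psap, Npc2, Lamp1, Laptm4b, Abca2 and Nagpa. Of the 20, 16 are lumenal enzymes or their cofactors. The 3 with higher values were Litaf, Ap1g1 and Ap3m1, none of them an enzyme. Paired by replicate number, P10 EV lay below P10 PBS for 74, 77, 65 and 80 of the 105 members in replicates 1 to 4, against 49.1% to 50.2% of all genes.

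All 10 cathepsins tested had a fold change below 0 in P10 EV, with a median of -0.46. Ctso, a cysteine cathepsin, had 14.1, 16.4, 16.6 and 16.8 CPM in P10 EV libraries, against 37.1, 28.4, 24.8 and 25.5 CPM in P10 PBS libraries. Its log2 fold change was -0.86 ± 0.32 (SE; edgeR adjusted p = 0.604), and the groups did not overlap. Ctsd had 289, 270, 268 and 203 CPM in P10 EV and 516, 392, 312 and 322 CPM in P10 PBS. The groups did not overlap here either, the highest library was P10 PBS replicate 1, and the fold change was -0.58 ± 0.26 (adjusted p = 0.683). Ctsb, which also trims peptides from the C terminus, had 276, 239, 261 and 212 CPM in P10 EV against 313, 291, 285 and 293 CPM in P10 PBS. Ctsl, a cysteine endopeptidase, had 38.6, 35.5, 36.8 and 37.6 CPM in P10 EV against 43.2, 41.9, 45.3 and 42.6 CPM in P10 PBS. Both genes differed by a narrow gap, with fold changes of -0.26 ± 0.23 and -0.22 ± 0.29. Ctsf and Ctsz overlapped between the groups.

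Of the 16 glycosidases, which remove sugars from glycolipids, glycoproteins and glycosaminoglycans, 15 had a fold change below 0 in P10 EV and the median was -0.27. Hexa, the alpha subunit of beta-hexosaminidase, had 90.3, 81.4, 90.8 and 68.0 CPM in P10 EV and 103, 107, 107 and 95.9 CPM in P10 PBS. Its libraries did not overlap between the groups, but the fold change was -0.32 ± 0.34, about the size of its error. Manba, beta-mannosidase, picked here after its values were seen, had 18.3, 18.3, 19.8 and 16.8 CPM in P10 EV against 28.5, 23.5, 23.1 and 24.8 CPM in P10 PBS (fold change -0.45 ± 0.17, edgeR adjusted p = 0.606). Glb1 had 58.3, 55.8, 59.8 and 51.0 CPM in P10 EV against 70.2, 60.7, 58.3 and 59.9 CPM in P10 PBS. Its highest P10 EV library lay above the lowest P10 PBS library, and the fold change was -0.15 ± 0.13. Galc, the galactosylceramidase, overlapped as well, at -0.08 ± 0.19. Hyal1 was low in both groups, with 3.29 to 5.71 CPM in P10 EV and 4.77 to 8.42 CPM in P10 PBS (fold change -0.79 ± 0.38, adjusted p = 0.70).

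Among the sulfatases, which take sulfate groups off glycans and sulfolipids, and Sumf1, 7 of 8 had a fold change below 0 and the median was -0.33. Arsa, the enzyme of sulfatide breakdown, taken after its values were seen, had 12.4, 12.3, 14.1 and 8.51 CPM in P10 EV and 26.5, 20.8, 18.4 and 15.1 CPM in P10 PBS (-0.78 ± 0.32, edgeR adjusted p = 0.654). The groups did not overlap. Arsg had the most negative fold change of all members, -0.94 ± 0.53, from 1.66, 3.69, 3.12 and 1.12 CPM in P10 EV and 3.20, 1.65, 6.36 and 6.90 CPM in P10 PBS, and its libraries overlapped. The more expressed Ids, which acts on heparan sulfate, also overlapped.

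Of the other hydrolases 7 of 9 had a fold change below 0, and of the lipid-binding and activator proteins 3 of 5. Smpd1, the acid sphingomyelinase, had 47.2, 45.3, 44.9 and 38.9 CPM in P10 EV, against 80.2, 59.3, 52.9 and 59.8 CPM in P10 PBS (-0.52 ± 0.22, edgeR adjusted p = 0.663). Psap had 559, 473, 507 and 417 CPM in P10 EV, against 866, 607, 636 and 613 CPM in P10 PBS (-0.48 ± 0.22, adjusted p = 0.684). Npc2, the soluble carrier that hands cholesterol to the membrane protein NPC1, had 115, 105, 99.6 and 95.8 CPM in P10 EV and 127, 118, 128 and 123 CPM in P10 PBS. All 3 genes were without overlap, and for Psap and Smpd1 the highest library was again P10 PBS replicate 1. Gm2a, the activator that presents GM2 ganglioside to hexosaminidase, had 114 to 156 CPM in P10 EV and 116 to 139 CPM in P10 PBS. Asah1, the acid ceramidase, and Ppt1, a thioesterase, overlapped too, and so did the peptidase genes Tpp1 and Lgmn. The median fold change was -0.19 for 9 other hydrolases, -0.31 for 2 other proteases and -0.25 for 5 lipid-binding and activator proteins.

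Of 19 membrane proteins, 16 had a fold change below 0 in P10 EV, with a median of -0.19. Lamp1 had 492, 479, 475 and 430 CPM in P10 EV, against 693, 620, 556 and 541 CPM in P10 PBS, with no overlap and a fold change of -0.36 ± 0.21. Laptm4b, a membrane protein of late endosomes named after its values were seen, had 123, 121, 118 and 105 CPM in P10 EV and 164, 171, 136 and 126 CPM in P10 PBS (-0.36 ± 0.13, edgeR adjusted p = 0.601). Lamp2, Npc1 and Laptm4a overlapped. Cd63 overlapped by a narrow margin, with 99.5, 90.8, 69.6 and 65.0 CPM in P10 EV and 142, 124, 103 and 99.3 CPM in P10 PBS. Abcb9 had 2.35 to 3.62 CPM in P10 EV and 3.18 to 10.3 CPM in P10 PBS, where replicate 1 alone gave the highest value. Litaf, which takes part in sorting proteins to late endosomes, ran the other way: it had 29.7, 30.5, 30.9 and 34.7 CPM in P10 EV, against 11.4, 23.3, 25.5 and 19.6 CPM in P10 PBS. Its fold change was 0.66 ± 0.21, and its adjusted p of 0.55 by edgeR was the smallest of the members in this comparison.

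The 8 V-ATPase genes had a median of -0.13, and none was without overlap. Atp6v0a2, a subunit of the membrane sector, had 89.3, 81.4, 84.4 and 75.9 CPM in P10 EV, against 148, 158, 86.0 and 85.3 CPM in P10 PBS. P10 PBS replicates 1 and 2 were high, while replicates 3 and 4 lay within the P10 EV range (-0.53 ± 0.19, edgeR adjusted p = 0.601). Atp6v0d1 had 112 to 146 CPM in P10 EV and 133 to 160 CPM in P10 PBS. Genes of enzyme sorting and coats stood near 0, with a median of 0.03 and 12 of 28 below 0. Ap3m1, a subunit of the adaptor AP-3, had 136, 156, 137 and 185 CPM in P10 EV, against 50.1, 67.4, 133 and 128 CPM in P10 PBS. The P10 PBS libraries formed a low pair, replicates 1 and 2, and a pair close to P10 EV (0.70 ± 0.29, adjusted p = 0.654). Ap1g1, a large subunit of the adaptor AP-1, had 209, 213, 218 and 217 CPM in P10 EV and 185, 170, 204 and 199 CPM in P10 PBS (0.18 ± 0.10). Cltc, Ap3d1, Ap1m1, M6pr and Ap1s2 overlapped between the groups.

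**Figure D1:**
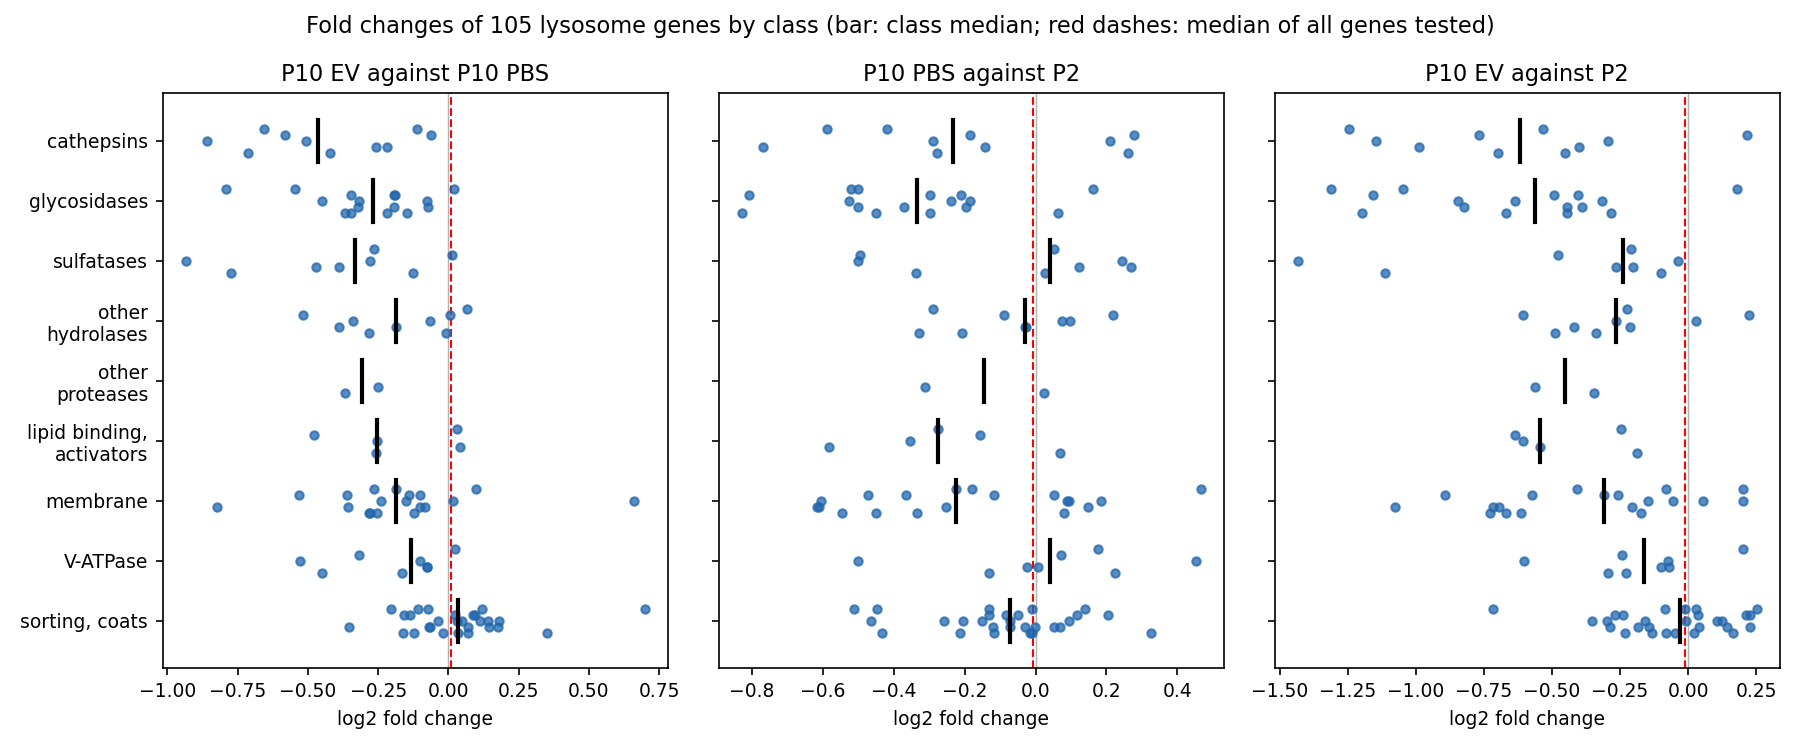
Log2 fold changes of the 105 lysosome genes tested, by role class, for each comparison (1 point per gene, black bar the class median, red dashes the median of all genes tested). In P10 EV against P10 PBS the cathepsins all lie below 0 (median -0.46) while sorting and coat genes centre near 0 (median 0.03).

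In P10 PBS against P2 cultures, 14 of 16 glycosidases and 12 of 19 membrane proteins had fold changes below 0, and the V-ATPase and sulfatase classes had medians near 0. The libraries behind this comparison overlapped for almost every member. The median log2 fold change of the 105 members was -0.13, against -0.01 for all genes, with 71 (67.6%) below 0 against 51.2% of all genes. EdgeR called 0 members, beside 0.928% of all genes, and DESeq2 and limma-trend called 0 as well; at an unadjusted p under 0.05 edgeR counted 10 lower, beside 7.65% of all genes, and 2 higher, beside 5.97%, or 12 of 105 beside 13.6%, a share near this background. Without P2 replicate 1 this count was 36, beside 25.8% of all genes in the same fit, and without P2 replicate 4 it was 7, beside 10.1%. All P10 PBS libraries lay below all P2 libraries for 2 members (1.9%), Igf2r and Sort1, beside 3.12% of all genes, and above them for 1, M6pr, beside 2.58%; both shares are below those of all genes. Of 12 markers of the oligodendrocyte lineage, 9 were tested, with a median fold change of -1.18 in this comparison; 5 had an unadjusted p under 0.05 and edgeR called 1 lower. Their summed level was 2382 to 3131 CPM in P10 PBS and 2331 to 3700 CPM in P2. Olig1 (1159 to 1677 and 1079 to 1465 CPM) and Olig2 (896 to 1084 and 652 to 983 CPM) weighed most in that sum. Of the 9 tested, 7 had a fold change below 0 and 2 above. The part of these markers in the lysosome values was not tested.

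Igf2r, the large mannose 6-phosphate receptor, which also clears IGF2, had 119, 79.0, 122 and 100 CPM in P10 PBS, against 125, 125, 175 and 173 CPM in P2 (-0.51 ± 0.17, edgeR adjusted p = 0.199). M6pr, the small mannose 6-phosphate receptor, had 63.7, 59.8, 61.9 and 57.9 CPM in P10 PBS, against 52.2, 52.1, 46.9 and 42.8 CPM in P2 (0.33 ± 0.11, adjusted p = 0.213). Neither of these receptors passed the test. Scarb2, an abundant protein of the lysosomal membrane, had 205, 179, 180 and 195 CPM in P10 PBS and 181, 257, 423 and 298 CPM in P2 (-0.61 ± 0.20), and its adjusted p of 0.196 by edgeR was the smallest of the members. Without P2 replicate 1 Scarb2 was called, with a fold change of -0.77 (edgeR adjusted p = 0.0162), in a fit that called 3.81% of all genes lower. Igf2r and Scarb2 were singled out after their values were seen.

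Glycosidases had a median of -0.34 in P10 PBS against P2, with 14 of 16 below 0. Idua had 6.06, 6.52, 7.67 and 8.57 CPM in P10 PBS and 7.70, 9.28, 18.4 and 16.0 CPM in P2 (-0.83 ± 0.33, edgeR adjusted p = 0.294). P2 replicates 3 and 4 were high and P2 replicate 1 lay inside the P10 PBS range. Glb1 had 58.3 to 70.2 CPM in P10 PBS, against 76.0, 61.1, 84.8 and 84.3 CPM in P2 (-0.30 ± 0.13). The cathepsins had a median of -0.23. Ctsl had 41.9 to 45.3 CPM in P10 PBS and 35.7, 47.9, 121 and 90.3 CPM in P2 (-0.77 ± 0.29, adjusted p = 0.272), again with 2 high P2 libraries; without P2 replicate 1 it was called, at -0.99 (edgeR adjusted p = 0.0261).

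Membrane proteins had a median of -0.22 and the lipid carriers and activators -0.28. Npc1, the membrane exporter of cholesterol, had 171 to 277 CPM in P10 PBS and 148, 227, 574 and 330 CPM in P2 (-0.55 ± 0.32), and Gm2a had 116 to 139 CPM in P10 PBS and 81.1, 171, 320 and 205 CPM in P2 (-0.58 ± 0.29). Without P2 replicate 1 Gm2a was called, at -0.83 (edgeR adjusted p = 0.0251). Abca2, at -0.58 (edgeR adjusted p = 0.0279), and the glycosidase genes Naglu and Gaa were called lower in that fit too. Litaf had 11.4, 23.3, 25.5 and 19.6 CPM in P10 PBS, against 31.7, 24.9, 33.8 and 30.8 CPM in P2 (-0.60 ± 0.21, edgeR adjusted p = 0.226). Its P2 values overlapped those of P10 EV. The V-ATPase genes had a median of 0.04; Atp6v0a2 had 148, 158, 86.0 and 85.3 CPM in P10 PBS and 82.1 to 94.1 CPM in P2, so that only P10 PBS replicates 1 and 2 lay above P2 (0.45 ± 0.19, adjusted p = 0.322). Sulfatases had a median of 0.04, and coats one of -0.07.

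In P10 EV against P2 cultures, most lumenal enzymes had lower values in P10 EV, with 46 of 50 fold changes below 0 and a median of -0.45. Over the 105 members the median was -0.27, against -0.01 for all genes, and 85 (81.0%) were below 0 against 51.2%. EdgeR called 0 members, beside 0.585% of all genes, and limma-trend called 0; at an unadjusted p under 0.05 edgeR counted 32 lower, beside 10.9% of all genes, and 1 higher, beside 8.28%, or 33 of 105 beside 19.2%. Without P2 replicate 1 this count was 55, beside 33.2% of all genes in the same fit, and without P2 replicate 3 it was 19, beside 12.6%. The DESeq2 Wald test called 14 members, all with lower values in P10 EV, beside 3.85% of all genes called lower, among them Scarb2, Naglu, Arsa, Hyal1, Idua, Ctso, Ctsf, Igf2r, Glb1, Abca2, Manba, Gaa and Ctsl. All P10 EV libraries lay below all P2 libraries for 6 members (Ppt2, Abcb9, Igf2r, Glb1, Abca2 and Manba), 5.71% of those tested and near the 4.36% of all genes, and above them for Ap1g1, beside 4.66%. Other lists shifted in the same comparison: the 9 oligodendrocyte markers tested had a median of -1.06 and the 9 astrocyte markers one of -0.67, each with 5 at an unadjusted p under 0.05 and 1 called lower by edgeR, and the 20 S phase genes had one of 0.89, with 12 at an unadjusted p under 0.05. The summed level of the oligodendrocyte markers, in which Olig1 and Olig2 weighed most, was 2624 to 2975 CPM in P10 EV and 2331 to 3700 CPM in P2. The part of these lists in the lysosome values was not tested.

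The smallest adjusted p of a member by edgeR was 0.0709, for Abca2, a lipid transporter of endosomes and lysosomes that was singled out after its values were seen. It had 151, 165, 160 and 126 CPM in P10 EV, against 173, 292, 307 and 226 CPM in P2, a log2 fold change of -0.73 ± 0.17. Igf2r had 81.6, 96.0, 101 and 85.3 CPM in P10 EV, against 125, 125, 175 and 173 CPM in P2 (-0.72 ± 0.17, adjusted p = 0.0713). Both genes were without overlap and just missed the threshold in edgeR. By the DESeq2 Wald test their adjusted p were 0.00399 and 0.00487. Manba had 16.8 to 19.8 CPM in P10 EV and 20.0 to 34.5 CPM in P2 (-0.64 ± 0.17, edgeR adjusted p = 0.0961), and Glb1 had 51.0 to 59.8 CPM in P10 EV and 61.1 to 84.8 CPM in P2 (-0.45 ± 0.13, adjusted p = 0.112). Without P2 replicate 1 all 4 were called, with adjusted p by edgeR from 0.00429 for Abca2 to 0.0413 for Glb1. That fit called 8.85% of all genes lower, and without P2 replicate 3 edgeR called 0 members.

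Other enzyme genes had larger fold changes that rested on part of the P2 libraries. Arsg had the most negative value of all members, -1.44 ± 0.53, followed among named genes by Hyal1 at -1.31 ± 0.38 and Ctsf, a cysteine cathepsin, at -1.25 ± 0.38. Ctsf had 17.9, 20.4, 15.9 and 10.6 CPM in P10 EV, against 14.3, 38.2, 69.2 and 32.1 CPM in P2, so that P2 replicate 1 lay inside the P10 EV range. The same held for Ctso, with 14.8, 27.3, 57.8 and 41.7 CPM in P2 (-1.15 ± 0.32), for Ctsl (-0.99 ± 0.29) and for Psap, with 499, 649, 1137 and 751 CPM in P2 (-0.63 ± 0.22). For Idua (-1.20 ± 0.33) P2 replicate 1, at 7.70 CPM, lay below the highest P10 EV library. Ctsd had 235, 395, 668 and 457 CPM in P2 (-0.77 ± 0.26) and Cd63 had 73.2, 112, 239 and 181 CPM in P2 (-0.89 ± 0.30). Without P2 replicate 1 edgeR called Arsg, Hyal1, Ctsf, Ctso, Ctsl, Psap, Idua, Ctsd and Cd63, with adjusted p from 0.00465 for Ctso to 0.0337 for Arsg. Other named members were called lower in that fit as well, among them Hexa, Npc1, Npc2, Gm2a, Smpd1, Tpp1, Ctsb, Scarb2, Arsa and Abcb9. The same fit called 8.85% of all genes lower. Without P2 replicate 3 none of these genes was called, and edgeR called 0 members in this comparison. Coats again stood near 0 (median -0.03): Ap1g1 had 209 to 218 CPM in P10 EV and 175 to 197 CPM in P2 (0.23 ± 0.10), and Cltc had 1124 to 1225 CPM in P10 EV and 797 to 1247 CPM in P2 (0.23 ± 0.15).

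**Figure D2:**
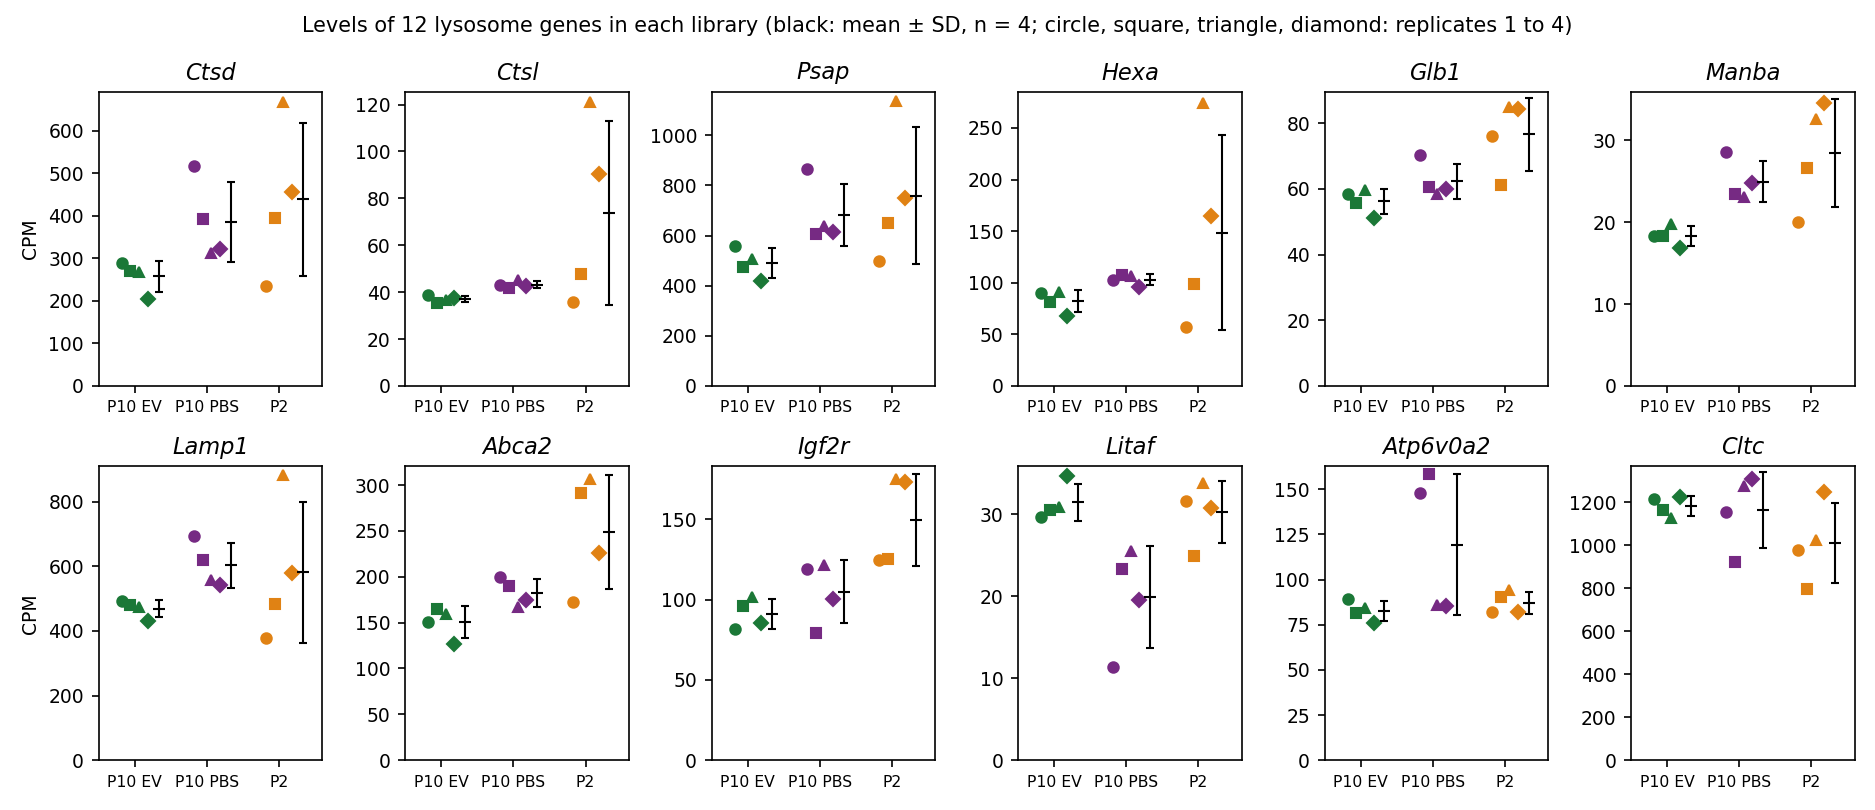
CPM of 12 lysosome genes in each library of P10 EV, P10 PBS and P2 (symbols: replicates 1 to 4; black: mean ± SD, n = 4). Ctsl and Ctsd spread widely in P2, from 35.7 to 121 CPM and from 235 to 668 CPM, while Abca2, Glb1, Manba and Igf2r lie lower in every P10 EV library than in any P2 library.

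Each group enters 2 of the 3 comparisons, so their fold changes are not independent. By group mean, 53 of 105 members (50.5%), 31 of them lumenal, stood in the order P2 highest, P10 PBS next and P10 EV lowest, against 22.2% of all genes. Among the named members, Psap, Ctsd, Hexa and Glb1 did so, but their neighbouring groups overlapped in at least 1 step.

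The spread within P2 was the widest for these genes. The median SD of log2 CPM over the 105 members was 0.15 in P10 EV, 0.21 in P10 PBS and 0.41 in P2, against 0.22, 0.25 and 0.37 over all genes. Among the 4 P2 libraries, replicate 1 was the lowest for 77 members (73.3%, against 33.8% of all genes) and replicate 3 the highest for 79 (75.2%, against 30.6%). The mean deviation of the 105 members from their 12-library mean was -0.10, -0.14, -0.11 and -0.27 log2 CPM in P10 EV replicates 1 to 4, 0.13, 0.00, -0.03 and -0.03 in P10 PBS, and -0.30, 0.06, 0.54 and 0.24 in P2. The P2 libraries thus spanned the range of both late groups. By the same measure 9 astrocyte markers stood at -0.39, -0.51, -0.24 and -0.60 in P10 EV, 0.73, -0.25, -0.11 and 0.00 in P10 PBS, and -1.20, 0.32, 1.61 and 0.64 in P2. The oligodendrocyte markers stood at -0.29, -0.40, 0.15 and -0.16 in P10 EV, -0.57, -0.34, -0.64 and -0.39 in P10 PBS, and -0.92, 1.59, 1.41 and 0.56 in P2. The S phase genes ran opposite to the lysosome genes across P2 replicates, at -1.86 in replicate 3, the highest for lysosome genes, and at 0.57 in replicate 1, the lowest. The part of these lists in the lysosome values was not tested.

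**Figure D3:**
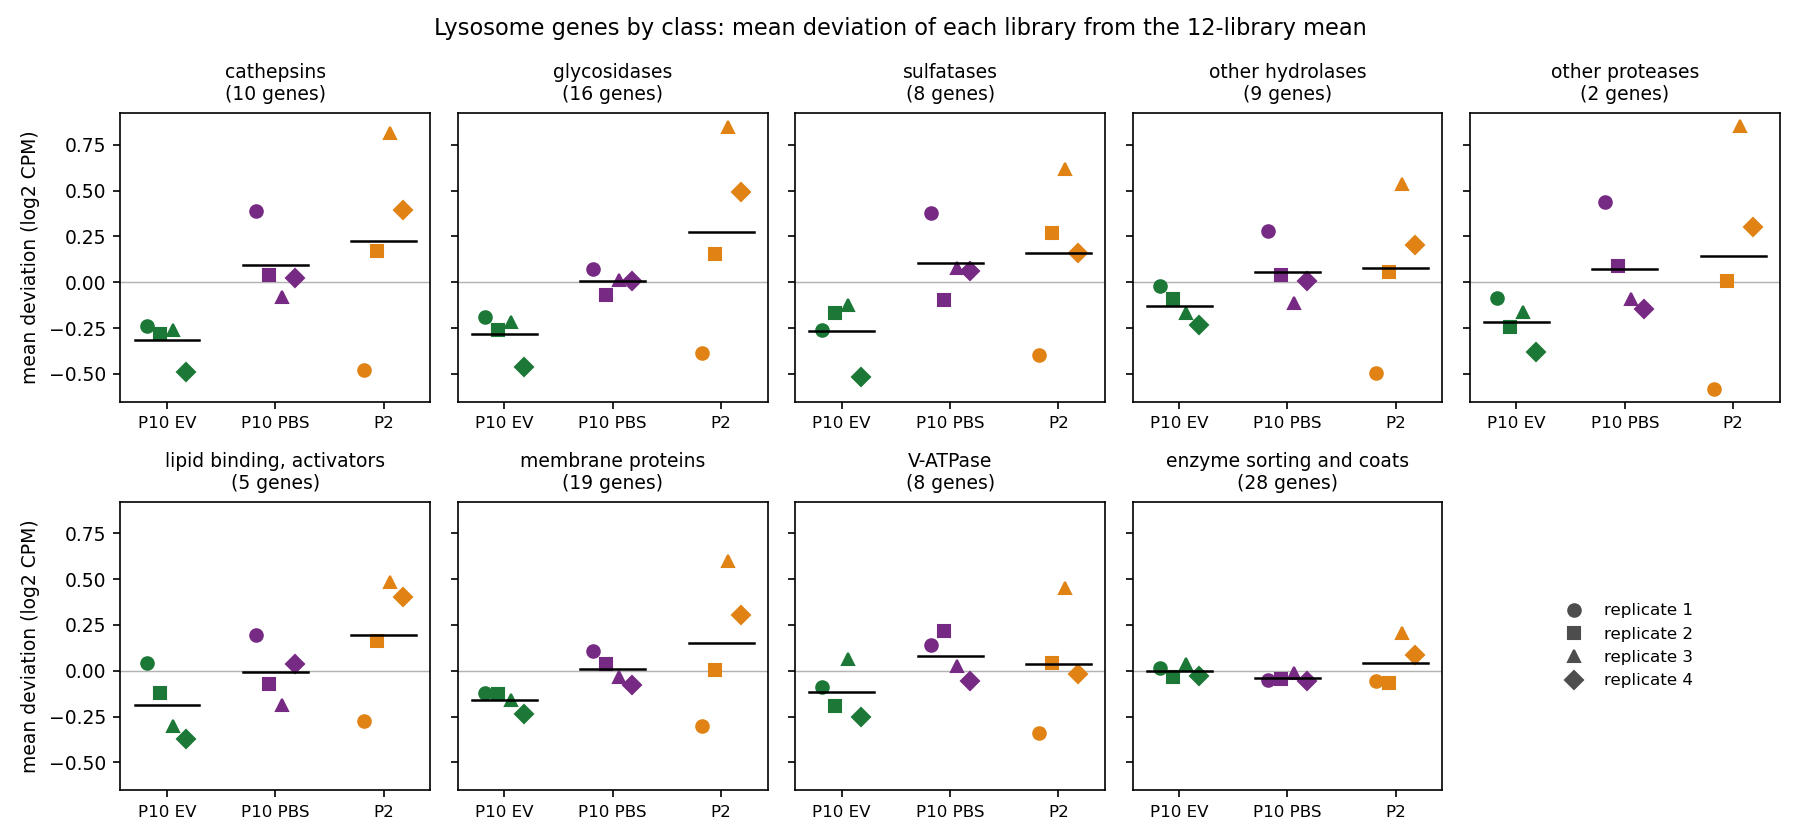
Mean deviation of each library from the 12-library mean (log2 CPM) for the tested genes of each of 9 role classes, in P10 EV, P10 PBS and P2 (symbols: replicates 1 to 4; line: group mean). In cathepsins all P10 EV libraries lie below all P10 PBS libraries, and P2 runs from replicate 1 at -0.48 to replicate 3 at 0.82.

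**Figure D4:**
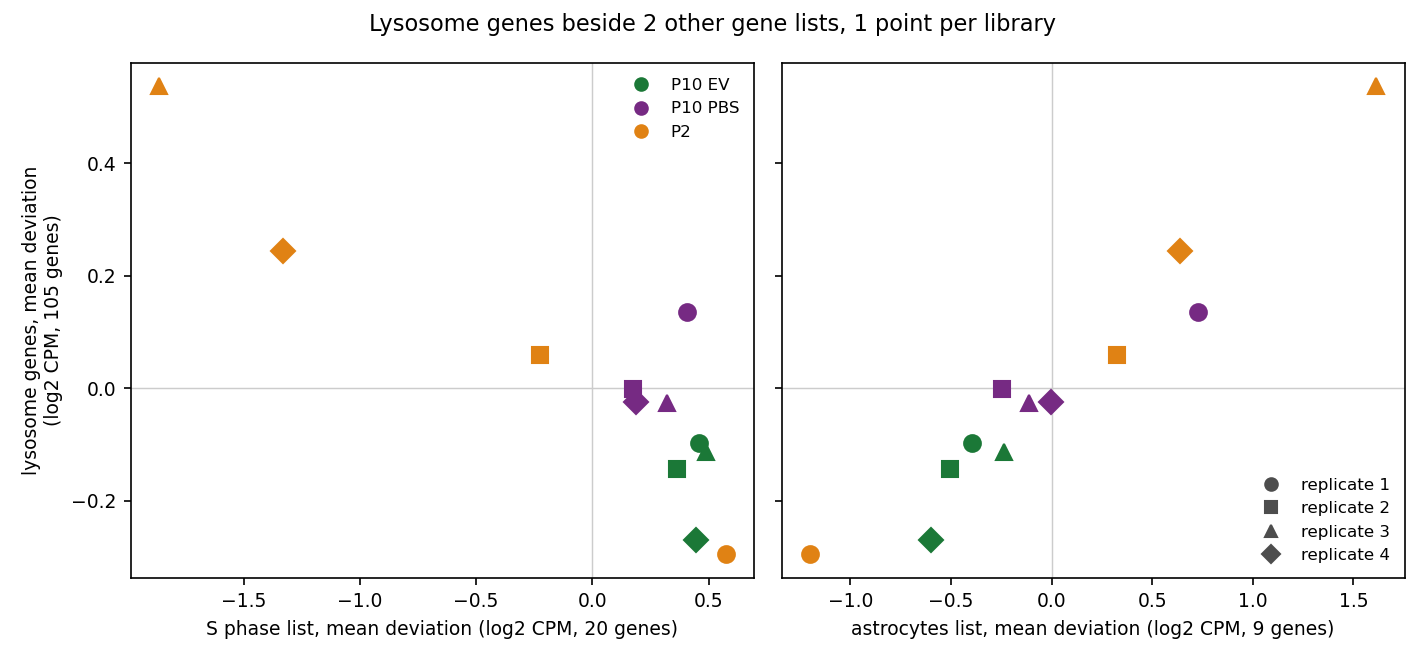
Mean deviation of the 105 lysosome genes (vertical axis, log2 CPM) beside that of 20 S phase genes (left) and of 9 astrocyte markers (right), 1 point per library, coloured by group. P2 replicate 3 is highest for lysosome genes (0.54) and astrocyte markers (1.61) and lowest for S phase genes (-1.86); P2 replicate 1 lies at the other end of all 3.

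Calls against P2 depended on P2 replicate 1. Without it, edgeR called 37 of 105 members lower in P10 EV against P2 (35.2%), beside 8.85% of all genes called lower, and 8 lower in P10 PBS against P2 (7.62%), beside 3.81% of all genes. No member was called higher in these fits, and the medians were -0.38 and -0.24. All libraries of the late group then lay below the 3 P2 libraries for 40 members in P10 EV and 15 in P10 PBS, beside 15.2% and 9.43% of all genes. Without the 4 libraries with liver transcripts, which leaves P2 replicates 3 and 4, 50 members were called lower in P10 EV against P2 (47.6%), beside 10.1% of all genes, and 32 in P10 PBS against P2 (30.5%), beside 6.58%. P10 EV against P10 PBS still gave 0 members called, at the same median of -0.16, and 28 members with all P10 EV libraries below all P10 PBS libraries, beside 7.78% of all genes. In the other direction, without P2 replicate 3 edgeR called 0 members in P10 EV against P2. The median of P10 EV against P2 was then -0.10 and that of P10 PBS against P2 was 0.04, on the other side of 0. Without P2 replicate 2 the test called 1 member lower in P10 EV against P2, Glb1, beside 0.578% of all genes.

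The genes that control and serve lysosomes outside the pathway list had medians nearer to 0 than the lumenal enzymes in all comparisons, and edgeR called 0 of them in each. Beside all 105 lysosome genes this did not hold for every list. Core autophagy genes had medians of -0.17 beside -0.13 in P10 PBS against P2, and -0.30 beside -0.27 in P10 EV against P2. Of them 81.8% and 87.9% were below 0, beside 67.6% and 81.0% of the lysosome genes. The transcription factor Tfeb had 14.9, 13.0, 10.9 and 8.01 CPM in P10 EV, 12.1, 16.1, 10.4 and 10.9 CPM in P10 PBS, and 10.8, 15.9, 13.2 and 12.6 CPM in P2. Its relative Tfe3 had 34.0 to 43.3 CPM in P10 EV, 35.3 to 50.6 CPM in P10 PBS and 39.8 to 56.8 CPM in P2, and Mitf had 2.06 to 5.28, 2.25 to 8.04 and 2.56 to 11.5 CPM in the same groups. All 3 overlapped between all groups, and in P10 EV against P2 their log2 fold changes were -0.17 ± 0.21, -0.27 ± 0.15 and -0.86 ± 0.49. Over 24 tested genes of the MiT-TFE factors and nutrient sensing at the lysosome, which include Rraga and Lamtor1, the median fold change was -0.05 in P10 EV against P10 PBS, -0.09 in P10 PBS against P2 and -0.11 in P10 EV against P2. At an unadjusted p under 0.05 edgeR counted 1, 1 and 3 of them, beside 7.24%, 13.6% and 19.2% of all genes.

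The 12 tested V-ATPase subunits outside the pathway list, led by Atp6v0e2 and Atp6v1g1, had medians of -0.10 in P10 EV against P10 PBS, -0.02 in P10 PBS against P2 and -0.16 in P10 EV against P2, with 0 genes at an unadjusted p under 0.05. The 33 core autophagy genes, all of them tested, had medians of -0.05, -0.17 and -0.30 in the same order. At an unadjusted p under 0.05 edgeR counted 1, 3 and 8 of them, all lower, beside 4.39%, 7.65% and 10.9% of all genes lower. The 8 of 33 in P10 EV against P2 lay above that share and above the 19.2% of all genes in both directions. Gabarap, which couples cargo to the growing autophagosome, had 126, 106, 128 and 106 CPM in P10 EV, 148, 145, 131 and 124 CPM in P10 PBS, and 85.9, 138, 295 and 203 CPM in P2. Atg12, the ubiquitin-like conjugation factor, had 38.6 to 43.9, 42.6 to 47.5 and 39.9 to 66.2 CPM. Both had their highest value in P2 replicate 3, as most lysosome genes did. The 14 tested genes of lysosome tethering and fusion, such as Rab7 and Arl8b, had medians of 0.01, -0.17 and -0.16, with 0 genes at an unadjusted p under 0.05. Of these 14, 6, 13 and 11 had a fold change below 0.

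Set against the promoters shown above, the 23 tested members with CACGTG had a median log2 fold change of -0.28 in P10 EV against P10 PBS, with 20 below 0, and the 60 without it one of -0.10, with 41 below 0. Over all tested genes in the promoter table the medians were -0.02 for the 1217 with CACGTG and -0.01 for the 9454 without. In P10 PBS against P2 the order was the other way, at -0.13 with and -0.19 without the motif, and in P10 EV against P2 the medians were -0.31 and -0.27. For the longer TCACGTGA the gaps were small. The 10 tested members with it had medians of -0.22 in P10 EV against P10 PBS, -0.13 in P10 PBS against P2 and -0.28 in P10 EV against P2. The 73 without it had -0.15, -0.20 and -0.29. No test was run on these medians, and several members with either motif share a role class. Of the 4 genes whose promoters are shown, Ctsd and Lamp1 were without overlap between P10 EV and P10 PBS, while Atp6v0d1 and Glb1 overlapped.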

How the data were processed

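Polyadenylated RNA was sequenced paired-end in 12 libraries. The authors deposited raw counts per gene and, in the same table, FPKM, the counts divided by gene length and library total, per the file headers. HISAT2 2.0.4 and StringTie 1.3.0 are listed in the submitters' processing notes without a role; how reads were counted, the use of strand and the build were not given in the sources used here. Chromosome, start and end of 86 of the 123 members equal those in GENCODE M21 (GRCm38), and the exons of 48 overlap another gene there, 42 of them on the other strand; reads of such partners cannot be told apart without strand.

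Members were taken from the deposited KEGG names. Low genes were removed with filterByExpr (edgeR 4.0.16, minimum count 10), libraries were scaled by TMM (factors 0.941 to 1.038), and edgeR's quasi-likelihood test was run across all genes tested, with 3 group means over the 12 libraries (9 residual degrees of freedom). Genes were called at a Benjamini-Hochberg adjusted p under 0.05 over all genes tested. CPM are counts scaled by the adjusted library total; fold changes are log2 ratios of the first group over the second, given with SE. The pipeline was tested on simulated data.

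The members, role classes and gene lists were chosen with earlier results of these data known. Named members are any called, the 3 with the highest FPKM of each class, the 3 largest fold changes in each direction of each comparison at 5 CPM or more in the higher group, and Lamp1, Lamp2, Ctsb, Ctsd, Ctsl, Glb1 and Npc1; some members this rule names are not reported here. Outside the pathway, the 2 most expressed genes of each list and Tfeb, Tfe3 and Mitf were named, and promoters were printed for 4 named members, those with the longer motif first and then the most expressed with the shorter. Labels do not say whether replicates are separate cultures or animals, so p-values reflect only the spread among these samples, which may be technical. Library names carry 1 code per replicate number, whose meaning the labels do not state. Between P10 EV and P10 PBS, deviations from the group means correlated between libraries of the same number by 0.14 to 0.37 over genes. The P10 PBS library that matched best had the same number for 3 of 4 P10 EV libraries, but not for replicate 3. The numbers may thus pair these 8 libraries, and the fit took them as independent. Alternatives were DESeq2 1.42.0 (size factors; Wald test), limma 3.58.1 (limma-trend on log2(FPKM + 1)), no count filter, a fit of the 8 compared libraries by themselves, replicate number as a block, leaving out each library, and, chosen after seeing the data, leaving out the 4 libraries with liver transcripts.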

Additional observations from a re-analysis of the deposited data

Results flagged for a closer look

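For 162 groups of 4 libraries the highest and lowest library was set against the other 3, and 4 groups (2.47%) had a library whose gap to its nearest neighbour took a larger share of the group's range than Dixon's critical value for 4 values. Chance flags about 1 in 20 such groups, so these 4 are fewer than chance alone gives. P10 EV replicate 1 had 14.1 CPM of Ctso, the cysteine cathepsin, against 16.4 to 16.8 CPM in the other P10 EV libraries. P10 EV replicate 4 had 23.5 CPM of Ap1s2, a small subunit of the adaptor AP-1, against 13.4 to 15.0 CPM in the others of its group. P10 PBS replicate 1 had 866 CPM of Psap, the saposin precursor, against 607 to 636 CPM in the other P10 PBS libraries. The same library had a mean deviation of 0.135 log2 CPM over all lysosome genes tested, against -0.0273 to -0.00151 in the other 3.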

How the results depend on the processing

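EdgeR with DESeq2 size factors, without a count filter, with the 8 libraries of a comparison alone or with the replicate block, and limma-trend, called 0 lysosome genes in each comparison; the DESeq2 Wald test called 14 in P10 EV against P2. Leaving out 1 library gave 0 called in P10 EV against P10 PBS, 0 to 37 in P10 EV against P2 and 0 to 8 in P10 PBS against P2; both high counts come without P2 replicate 1. Without the 4 libraries with liver transcripts 50 were called in P10 EV against P2 (median -0.54) and 32 in P10 PBS against P2 (median -0.45). Leaving out 1 library, medians lay between -0.20 and -0.13 in P10 EV against P10 PBS, between -0.38 and -0.10 in P10 EV against P2 and between -0.24 and 0.04 in P10 PBS against P2; the cause was not tested. Members with all libraries of the late group below the other numbered 16 by FPKM (2.85% of all genes did so) and 21 to 27 with 1 library left out (4.75% to 7.84%) in P10 EV against P10 PBS. In P10 EV against P2 they numbered 3 by FPKM (3.47%), 6 to 40 with 1 left out (5.2% to 15.2%) and 69 without the 4 libraries, where 25.6% of all genes did so; in P10 PBS against P2 they numbered 1 (3.1%), 2 to 15 (3.81% to 9.43%) and 56, where 23.0% of all genes did so. On log2(FPKM + 1) the class medians of sorting genes in P10 EV against P2 (0.02) and of other hydrolases in P10 PBS against P2 (0.01) lay on the other side of 0. Of 705 alternative values for 47 printed fold changes, 0 turned in sign and 44 passed the threshold.

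With the block on replicate number, unadjusted p under 0.05 by edgeR was found for 9 members in P10 EV against P10 PBS, beside 7.25% of all genes in the same fit. It was found for 27 in P10 EV against P2, beside 19.2%, and for 12 in P10 PBS against P2, beside 14.1%. The block changed no call of a member. Correlations of same-numbered libraries were 0.09 to 0.19 between P10 EV and P2 and -0.08 to 0.21 between P10 PBS and P2. At this depth 18 of the 123 members had too few counts for a test.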
